A study of Mus musculus with 14 samples.

Results

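The genes described here mark uterine natural killer (NK) cells and the killing machinery of lymphocytes. They are Ncr1, Klrb1c, Eomes, Gzma, Gzmb, Prf1, Nkg7 and Il2rb, with Cd3e as a T cell gene set beside them and Il15 as the cytokine that NK cells depend on. They were picked by gene symbol, and all 10 were found among the 31274 symbols of the deposited expression table. The mice were of the FVB/N strain, intact, aged 2 months and given no treatment (the labels call them unexposed controls), and RNA of the uterus was sequenced in 14 libraries: WT at diestrus (replicates 1, 2, 3 and 4), WT at estrus (replicates 1, 2 and 4), HIF2A cKO at diestrus (replicates 1, 2, 3 and 4) and HIF2A cKO at estrus (replicates 1, 2 and 4). Diestrus is the phase of the cycle under progesterone from the corpora lutea, and estrus follows the rise of estrogen before ovulation. HIF2A cKO stands for a conditional knockout of HIF2A, which Epas1 encodes and which turns on genes when oxygen is low. The labels name neither the Cre line nor the deleted exons. They also do not say that each library came from its own animal, so the p-values describe the spread among these libraries, which may be technical.

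NK cells are lymphocytes that kill without prior sensitization, and the uterus holds a resident population that expands in the lining when pregnancy is established. Their survival needs interleukin-15 (IL-15), which neighbouring cells hold on the receptor chain IL-15Rα and present to the signalling chains IL-2Rβ (Il2rb) and the common gamma chain (Il2rg) on the NK cell. Killing runs through granules: perforin (Prf1) opens the membrane of the target, granzymes (Gzma, Gzmb) are the proteases that enter, and Nkg7 is a protein of the granule membrane. Ncr1 encodes the activating receptor NKp46, Klrb1c the receptor NK1.1, Eomes a T-box transcription factor of NK cell development, and Cd3e a chain of the T cell receptor complex that mature NK cells lack on their surface. In RNA of a whole tissue, fewer cells of a type and less RNA per cell cannot be told apart.

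The genes lie on separate chromosomes for the most part, and the regions just upstream of their start sites are shown because the same letters recur in several of the genes that were high together. The windows are taken from the RefSeq promoter table on build GRCm38.p6, which held 8 of the 10 genes (all but Il2rb and Il15). Below are the 250 bases before the start site of the NKp46 gene and of 3 genes of the killing granule, 5′ to 3′ on the strand of the gene. Capitals mark TGTGGT, the core letters bound by RUNX factors, or the same letters read on the other strand (ACCACA).
Ncr1, chr7:4337465-4337714, plus strand: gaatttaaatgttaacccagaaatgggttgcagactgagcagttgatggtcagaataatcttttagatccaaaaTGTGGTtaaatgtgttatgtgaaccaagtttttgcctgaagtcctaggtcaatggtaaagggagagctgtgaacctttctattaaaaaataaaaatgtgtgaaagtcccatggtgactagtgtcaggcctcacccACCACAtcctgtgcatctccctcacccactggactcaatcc
Gzma, chr13:113100982-113101231, minus strand: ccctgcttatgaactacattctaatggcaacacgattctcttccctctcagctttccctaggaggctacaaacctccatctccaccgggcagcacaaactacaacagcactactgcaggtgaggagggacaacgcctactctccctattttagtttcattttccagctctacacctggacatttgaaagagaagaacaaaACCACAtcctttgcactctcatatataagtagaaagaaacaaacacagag
Gzmb, chr14:56262335-56262584, minus strand: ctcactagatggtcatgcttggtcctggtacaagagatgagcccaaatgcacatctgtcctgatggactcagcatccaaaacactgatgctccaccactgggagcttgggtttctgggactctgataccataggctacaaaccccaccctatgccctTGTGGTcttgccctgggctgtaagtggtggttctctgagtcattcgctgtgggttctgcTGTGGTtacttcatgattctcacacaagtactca
Prf1, chr10:61297586-61297835, plus strand: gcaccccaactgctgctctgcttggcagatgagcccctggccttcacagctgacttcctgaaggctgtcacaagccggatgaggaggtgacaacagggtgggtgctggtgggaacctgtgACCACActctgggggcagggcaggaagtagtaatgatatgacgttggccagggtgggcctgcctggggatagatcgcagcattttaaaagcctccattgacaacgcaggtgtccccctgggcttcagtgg
Searched over the 300 bases from 250 before to 50 after the start site, on both strands, TGTGGT was found in 6 of the 8 windows: Ncr1, Klrb1c, Gzma, Gzmb, Prf1 and Nkg7. Of all 32851 promoters of the same length, 16.8% held it. Positions of its first base from the start site were -176 and -41 in Ncr1, -50 in Gzma, -93 and -34 in Gzmb, and -130 in Prf1. The STAT letters TTCNNNGAA, of interest because IL-15 signals through STAT5, were found in 2 of the 8 windows (Gzmb and Nkg7) against 8.3% of all. The T-box letters GGTGTGA were found in 1 (Nkg7) against 4.0%, and the ETS letters AGGAAG in 4 (Cd3e, Klrb1c, Nkg7 and Prf1) against 35.4%. Eomes, which was high in the same libraries, held none of the 4 motifs in its window. No match overlapped another in the sequences printed above. These matches describe letters in the windows, and binding was not measured.

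Levels are given in FPKM, a fragment count divided by the length of the transcript and by the size of the library, so levels of different genes can be set side by side. Comparisons were made on log2(FPKM + 1) with limma across the 14278 genes that reached 1 FPKM in 3 or more libraries, with the Benjamini-Hochberg adjustment over all of them and a threshold of 0.05. Of the 10 genes 9 passed that filter, and Cd3e did not. Replicates correlated at 0.956 to 0.994 within a group across genes. Epas1 itself stood at 31.9, 32.7, 43.5 and 31.2 FPKM in WT at diestrus and at 37.3, 35.1, 45.4 and 40.1 FPKM in HIF2A cKO at diestrus. At estrus it stood at 34.2, 31.2 and 33.3 FPKM in WT and at 45.7, 39.9 and 38.0 FPKM in HIF2A cKO. At neither stage was Epas1 below WT where the label says HIF2A cKO (exact two-sided permutation test, p = 0.229 at diestrus, where the smallest possible is 0.0286, and p = 0.1 at estrus, the smallest possible). The summed level of the gene does not show whether the deleted exons were lost, so HIF2A cKO below means the libraries that carry this label.

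Among the diestrus libraries, the genes of NK identity and killing were highest in the same 2, WT diestrus replicate 3 and HIF2A cKO diestrus replicate 3. Ncr1 (chr7:4337724-4345164, plus strand, GENCODE M21) stood at 3.54, 4.06, 21.2 and 3.37 FPKM in WT at diestrus, replicates 1, 2, 3 and 4, and at 2.10, 2.21, 12.0 and 2.47 FPKM in HIF2A cKO. At estrus it was narrow, at 3.56, 2.87 and 3.37 FPKM in WT and 2.90, 2.93 and 3.38 FPKM in HIF2A cKO, replicates 1, 2 and 4. In each genotype, replicate 3 was thus 5.80-fold (WT) and 5.30-fold (HIF2A cKO) above the mean of the other diestrus libraries, which lay near the estrus level. Gzma (chr13:113093825-113100981, minus strand) stood at 1.24, 2.52, 56.0 and 1.37 FPKM in WT at diestrus and at 1.46, 1.44, 27.3 and 1.37 FPKM in HIF2A cKO, so replicate 3 was 32.8-fold and 19.2-fold above the others. Gzmb (chr14:56258838-56262260, minus strand) stood at 1.73, 15.7, 77.6 and 3.52 FPKM in WT at diestrus and at 2.35, 3.28, 45.1 and 2.63 FPKM in HIF2A cKO. WT replicate 2 was the only other diestrus library with Gzmb above 10 FPKM, while its Gzma did not stand out in the same way.

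**Figure D1:**
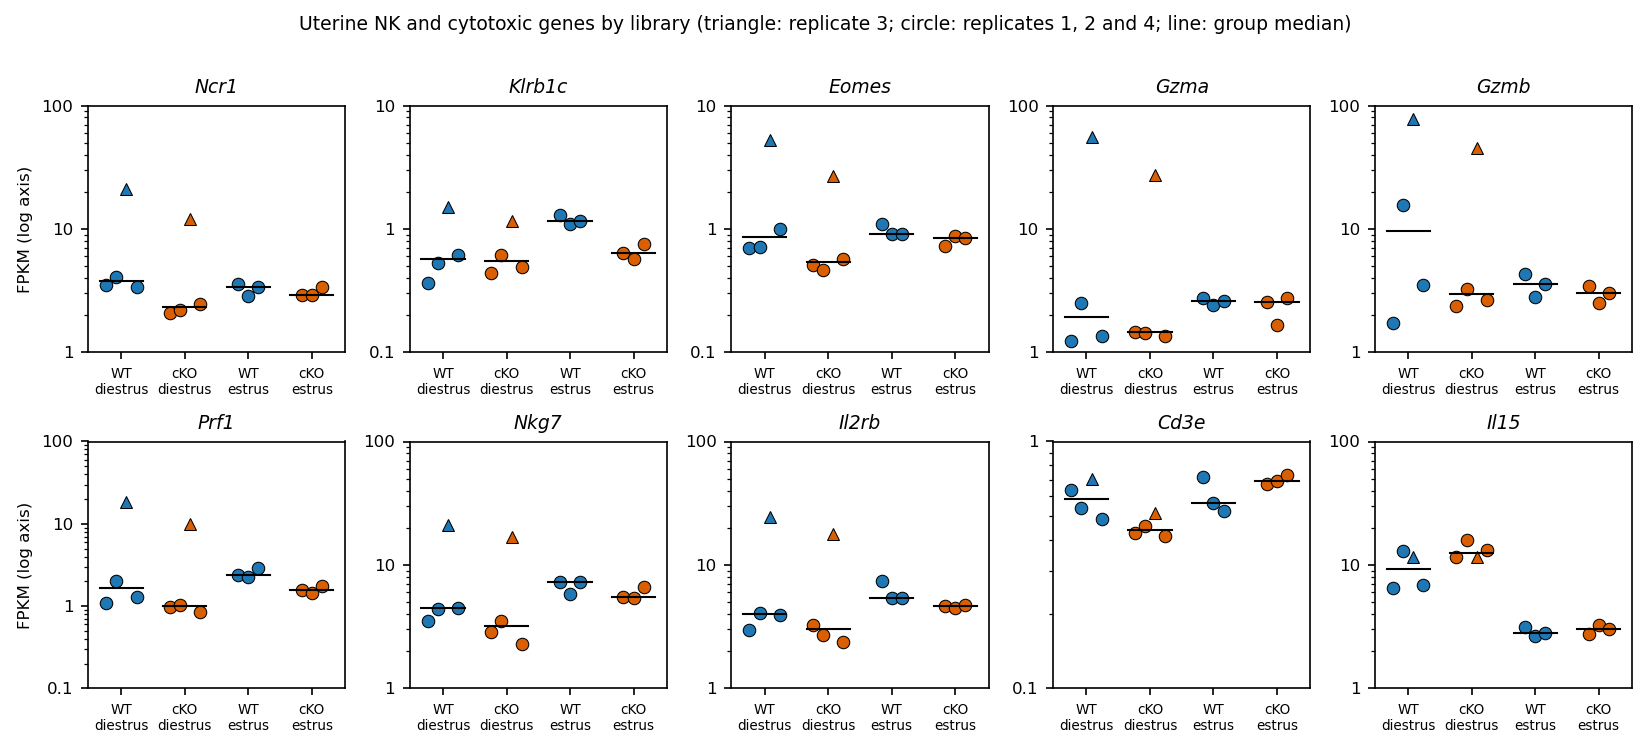
FPKM (log axis) of the 10 genes in each of the 14 libraries, grouped by genotype and stage, with triangles for replicate 3, circles for the other replicates and a line at the group median. The triangles stand above the circles of their group for the 8 NK and cytotoxic genes, reaching 77.6 FPKM for Gzmb in WT and 45.1 FPKM in HIF2A cKO, and only in WT and HIF2A cKO diestrus, since no estrus library is numbered 3.

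Perforin, the pore-forming protein, followed the granzymes. Prf1 (chr10:61297833-61304680, plus strand) stood at 1.08, 1.99, 18.6 and 1.30 FPKM in WT at diestrus and at 0.983, 1.03, 9.88 and 0.837 FPKM in HIF2A cKO. Its estrus levels were 2.38, 2.26 and 2.91 FPKM in WT and 1.58, 1.44 and 1.77 FPKM in HIF2A cKO. Replicate 3 apart, every diestrus library was below every estrus library of its genotype. Nkg7 (chr7:43437073-43438249, plus strand) stood at 3.51, 4.43, 21.1 and 4.46 FPKM in WT at diestrus, at 2.85, 3.52, 16.9 and 2.28 FPKM in HIF2A cKO at diestrus, at 7.22, 5.79 and 7.27 FPKM in WT at estrus and at 5.48, 5.39 and 6.68 FPKM in HIF2A cKO at estrus. Il2rb (chr15:78479256-78495271, minus strand), the receptor chain for IL-15, stood at 2.97, 4.09, 24.3 and 3.96 FPKM in WT at diestrus, at 3.27, 2.73, 17.9 and 2.38 FPKM in HIF2A cKO at diestrus, at 7.47, 5.36 and 5.42 FPKM in WT at estrus and at 4.69, 4.44 and 4.77 FPKM in HIF2A cKO at estrus. Both genes had the same order as Prf1, with replicate 3 on top and the other diestrus libraries at the bottom.

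The transcription factor and the NK1.1 receptor were the lowest of these genes. Eomes (chr9:118478212-118486132, plus strand) stood at 0.694, 0.717, 5.22 and 0.999 FPKM in WT at diestrus and at 0.512, 0.467, 2.70 and 0.568 FPKM in HIF2A cKO, with 1.10, 0.904 and 0.903 FPKM in WT at estrus and 0.731, 0.876 and 0.840 FPKM in HIF2A cKO. Klrb1c (chr6:128778485-128789215, minus strand) stood at 0.366, 0.532, 1.52 and 0.619 FPKM in WT at diestrus and at 0.442, 0.610, 1.16 and 0.494 FPKM in HIF2A cKO. Klrb1c differed from the rest in that WT estrus, at 1.30, 1.09 and 1.17 FPKM, came near replicate 3, while HIF2A cKO estrus, at 0.634, 0.573 and 0.751 FPKM, stayed near the other diestrus libraries. Klrb1c has close relatives in the same gene family (Klrb1a, Klrb1b and Klrb1f), and reads that such copies share may have been split between them.

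The T cell gene and the cytokine gene did not follow this pattern. Cd3e (chr9:44998740-45009627, minus strand) stood at 0.635, 0.540, 0.704 and 0.484 FPKM in WT at diestrus, at 0.425, 0.453, 0.514 and 0.414 FPKM in HIF2A cKO at diestrus, at 0.715, 0.561 and 0.522 FPKM in WT at estrus and at 0.670, 0.689 and 0.729 FPKM in HIF2A cKO at estrus. Replicate 3 was the highest diestrus library of its genotype here too, but by 1.27-fold in WT and 1.19-fold in HIF2A cKO. The ratio of Ncr1 to Cd3e therefore reached 30.1 and 23.3 in the libraries numbered 3, against 4.26 to 7.51 in the other 12. Il15 (chr8:82331632-82403222, minus strand) stood at 6.56, 13.0, 11.7 and 6.88 FPKM in WT at diestrus and at 11.7, 15.9, 11.7 and 13.2 FPKM in HIF2A cKO, so replicate 3 was within the range of the others or at its lower edge. At estrus Il15 fell to a narrow range, 3.15, 2.66 and 2.79 FPKM in WT and 2.78, 3.24 and 3.00 FPKM in HIF2A cKO.

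Of the 9 genes that passed the filter, 8 were highest of the 4 diestrus libraries in replicate 3 of both genotypes, all but Il15. Of all 14278 genes tested, 18.0% had that order. Eomes reached 1 FPKM only in WT and HIF2A cKO diestrus replicate 3 and in WT estrus replicate 1. It thus passed the filter through the libraries in which it is counted as highest. The genes were also chosen with earlier results of these data known, so the count is a description. Other genes of the killing granule stood apart in the same libraries: Gzmc, a granzyme of the cluster on chromosome 14 that also holds Gzmb, stood at 34.4 FPKM in WT replicate 3 against 2.47 to 7.39 FPKM in the other WT diestrus libraries. Klrg1, an inhibitory receptor of NK cells and effector T cells, stood at 10.6 FPKM against 0.774 to 0.865 FPKM. Of the 15 other NK receptor and identity genes tested, 10 were highest in both libraries numbered 3, as were 11 of 18 other granule and killing genes, 12 of 18 genes of the IL-15 and IL-2 receptor pathway and 5 of 8 T cell markers.

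Markers of other cells moved in the same libraries. The 8 pan-leukocyte markers summed to 287 FPKM in WT diestrus replicate 3 against 124 to 150 FPKM in the other WT diestrus libraries, and to 208 FPKM against 117 to 138 FPKM in HIF2A cKO. At estrus the same sum was 218 to 255 FPKM in WT and 235 to 267 FPKM in HIF2A cKO. Replicate 3 thus lay above the estrus range in WT and below it in HIF2A cKO. Ncr1, Gzma, Gzmb and Prf1 in replicate 3 were several-fold above their estrus levels in both genotypes. All 5 blood cell markers tested were highest in both libraries, with a sum of 1049 FPKM against 293 to 425 FPKM in WT and 895 FPKM against 486 to 543 FPKM in HIF2A cKO. None of the B cell (2), plasma cell (4), neutrophil (4) or mast cell (5) markers tested was highest in both. Of 3 epithelial genes, Epcam and Krt8 were lower there and Krt18 was not (1.20-fold and 0.985-fold the mean of the others in WT and HIF2A cKO). Epcam stood at 56.3 FPKM in WT replicate 3 against 87.2 to 131 FPKM, and at 62.1 FPKM against 125 to 150 FPKM in HIF2A cKO. The part of blood, of other leukocytes or of the share of epithelium in the NK gene levels was not tested. Of the T cell genes, Lck, Zap70 and Cd247, which signal from the T cell receptor and in part from NK receptors, were high there (2.68-fold, 4.15-fold and 3.16-fold the mean of the others in WT, and 2.22-fold, 5.05-fold and 2.35-fold in HIF2A cKO). Cd8a, at 0.051 FPKM or less in every library, was too low to show a change. Cd4 was at 0.779 and 0.592 FPKM in the libraries numbered 3, inside the range of the other diestrus libraries.

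**Figure D2:**
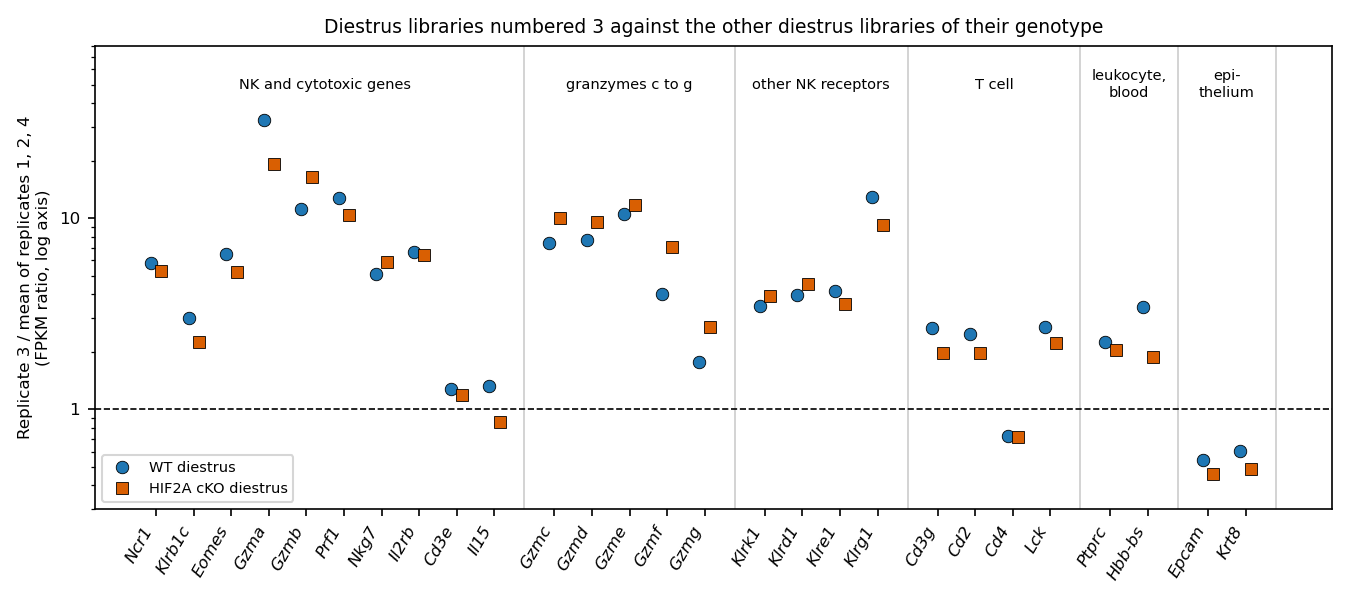
Ratio of the FPKM in diestrus replicate 3 to the mean FPKM of diestrus replicates 1, 2 and 4 (log axis, dashed line at equality) for single genes, with circles for WT and squares for HIF2A cKO. The ratio reaches 32.8 for Gzma in WT, stays between 0.859 and 1.33 for Cd3e and Il15, and lies below 1 for Cd4, Epcam and Krt8 in both genotypes.

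The order of the genes by level was read within each group, as a description. With all libraries Gzmb had the highest mean at diestrus (24.6 ± 35.8 FPKM in WT and 13.3 ± 21.2 FPKM in HIF2A cKO, SD, n = 4), but in both groups the SD was above the mean and the value rested on replicate 3. Without it the WT diestrus order was led by Il15 (8.80 ± 3.61 FPKM, SD, n = 3) and then Gzmb (6.98 ± 7.60 FPKM), Nkg7 (4.13 ± 0.539 FPKM), Il2rb (3.67 ± 0.610 FPKM) and Ncr1 (3.65 ± 0.358 FPKM), the last 4 of which overlapped in their ranges. At estrus Nkg7 was highest (6.76 ± 0.839 FPKM in WT and 5.85 ± 0.717 FPKM in HIF2A cKO, SD, n = 3), followed by Il2rb (6.08 ± 1.20 FPKM and 4.63 ± 0.172 FPKM), and the ranges of the pair overlapped in WT but not in HIF2A cKO. Cd3e and Klrb1c were the lowest at diestrus in both genotypes, and Cd3e, Klrb1c and Eomes were the lowest at estrus.

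The stage comparison asks which genes change across the cycle. Il15 was the only one of the 9 tested genes to change in the fit of all libraries, and it was lower at estrus in both genotypes. In WT it fell by a log2 difference of -1.39 (SE 0.195, adjusted p = 8.16e-05), and in HIF2A cKO by -1.81 (SE 0.195, adjusted p = 6.6e-06), with every estrus library below every diestrus library. Of all genes tested in WT, 34.1% were lower and 23% higher at estrus, and in HIF2A cKO 36.5% were lower and 25.5% higher, so 1 of 9 lower and 0 of 9 higher is below the background in both directions. No call for Il15 at either genotype was lost when any single library was left out. The other 8 genes had log2 differences from -1.31 (Gzmb) to 0.35 (Klrb1c) in WT and from -0.81 (Gzmb) to 0.27 (Nkg7) in HIF2A cKO, and none passed the threshold.

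The errors of most of these differences were far smaller without the libraries numbered 3. For Gzma the SE was 1.06 on the log2 scale with all libraries and 0.17 without WT and HIF2A cKO diestrus replicate 3, while for Klrb1c it was 0.19 and 0.098. Those libraries were known to stand apart and held the highest diestrus values of 8 of the 9 genes, all but Il15. Leaving them out lowers the diestrus mean and the spread of these 8 genes, so their calls below are a description. Without those libraries, 5 of the 9 genes were higher at estrus in WT, where 25.1% of all genes were higher and 36.0% lower: Nkg7 (log2 0.60, adjusted p = 0.0026), Il2rb (0.59, adjusted p = 0.00266), Klrb1c (0.54, adjusted p = 0.000669), Prf1 (0.53, adjusted p = 0.00467) and Gzma (0.44, adjusted p = 0.0429). In HIF2A cKO, 6 were higher, where 28.4% of all genes were higher and 38.2% lower: Nkg7 (0.83, adjusted p = 0.000221), Il2rb (0.58, adjusted p = 0.00264), Gzma (0.45, adjusted p = 0.0368), Prf1 (0.41, adjusted p = 0.0158), Ncr1 (0.32, adjusted p = 0.00968) and Eomes (0.26, adjusted p = 0.0309). Il15 remained lower at estrus in both genotypes, at -1.28 (adjusted p = 0.000223) and -1.86 (adjusted p = 1.01e-05). The sign of the stage difference of Gzma, Prf1 and Eomes in both genotypes and of Ncr1 and Gzmb in HIF2A cKO thus depended on the libraries numbered 3, and Il2rb moved from -0.02 in WT and 0.00 in HIF2A cKO. Ncr1 in WT (-0.13, adjusted p = 0.254) and Gzmb in either genotype (-0.38, adjusted p = 0.514, and 0.09, adjusted p = 0.878) did not pass the threshold without them. Leaving out WT diestrus replicate 3 alone was enough to call Klrb1c higher at estrus in WT (0.54).

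**Figure D3:**
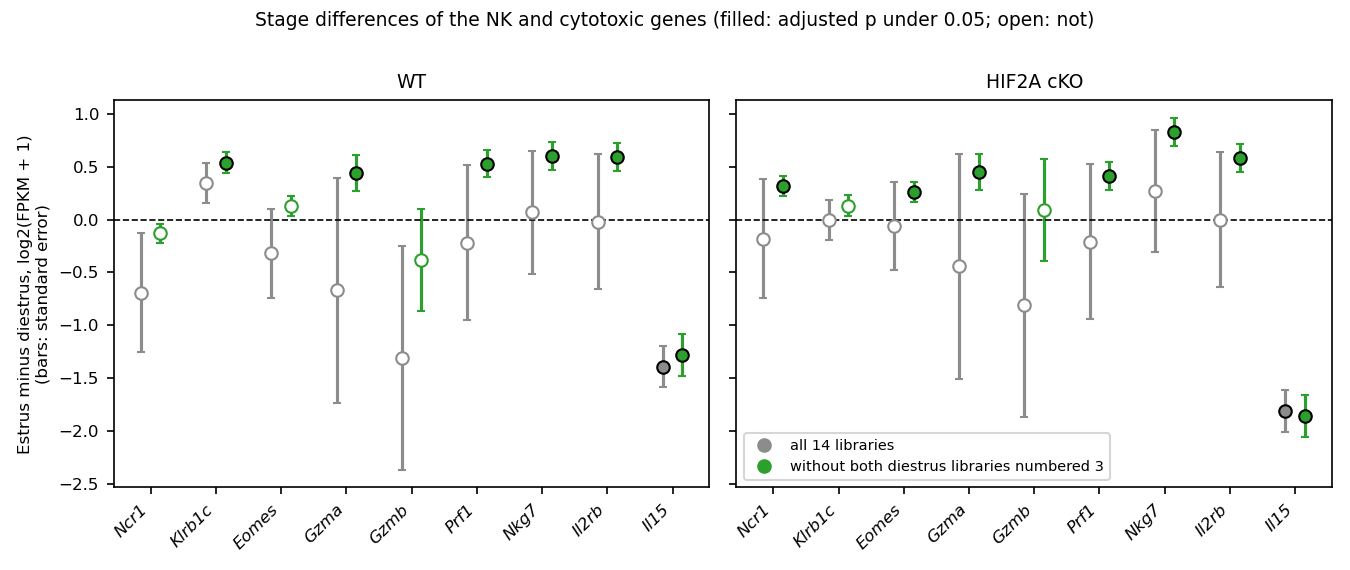
Estrus minus diestrus difference on the log2(FPKM + 1) scale, with standard errors, for the 9 genes that passed the filter in WT (left) and HIF2A cKO (right), with all 14 libraries (grey) and without both diestrus libraries numbered 3 (green); filled points have an adjusted p under 0.05. Il15 is filled and below 0 in all 4 cases, while Nkg7, Il2rb, Prf1 and Gzma are filled and above 0 in both genotypes only without those libraries, which hold their highest diestrus values.

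Cd3e, below the filter, was compared by permuting its libraries. In HIF2A cKO all 3 estrus libraries were above all 4 diestrus libraries, a log2 difference of 0.22 (exact two-sided permutation p = 0.0571, the smallest the design allows). In WT the difference was 0.01 (exact permutation p = 0.914), with estrus and diestrus values interleaved.

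The genotype comparison at diestrus asks how the uterus labelled HIF2A cKO differs from WT in the luteal phase. None of the 9 genes passed the threshold in the fit of all libraries (limma, adjusted p from 0.0768 for Il15), and 1, Il15, had an unadjusted p under 0.05. Of all genes tested, 13.8% were higher and 10.0% lower in HIF2A cKO. All 8 NK and cytotoxic genes had a negative log2 difference, from -0.05 (Klrb1c) to -0.69 (Gzmb), beside a median of 0.02 over all genes tested, with Klrb1c at 0.04 under quantile normalization or library weights. These differences turned with single libraries: that of Gzma was -1.24 without HIF2A cKO diestrus replicate 3 and 0.75 without WT diestrus replicate 3. Libraries that carry the same replicate number gave a narrower difference. Ncr1 in HIF2A cKO was at 0.592, 0.545, 0.565 and 0.733 of its WT level in pairs 1, 2, 3 and 4, so the ratio of the high libraries lay within the range of the other pairs. With the replicate number as a block in the diestrus libraries, Ncr1 was lower in HIF2A cKO by a log2 difference of -0.58 (SE 0.097, adjusted p = 0.0282) and was the only one of the 9 called, where 5.86% of all genes were called lower. In the same fit without the libraries numbered 3, a setting chosen after seeing the data, Ncr1 was at -0.51 (adjusted p = 0.0534) and none of the 9 was called (limma, 3 with an unadjusted p under 0.05: Ncr1, Il15 and Nkg7).

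The other genes gave similar ratios in some pairs only. Eomes was at 0.517 to 0.738 of WT, Prf1 at 0.517 to 0.911 and Nkg7 at 0.511 to 0.812, below 1 in all 4 pairs. Cd3e was also below WT in all 4 pairs, at 0.669 to 0.855 (log2 difference -0.13, exact two-sided permutation p = 0.0571, smallest possible 0.0286). Of the 9 tested genes, 4 were lower in HIF2A cKO in all 4 pairs, against 19.9% of all genes. Gzma (0.487 to 1.17), Gzmb (0.209 to 1.37), Il2rb (0.601 to 1.10) and Klrb1c (0.762 to 1.21) fell on both sides of 1. The lowest Gzmb ratio was that of pair 2, where the WT library stood at 15.7 FPKM. With the block in a fit of all 14 libraries, Ncr1 (adjusted p = 0.00208), Eomes (adjusted p = 0.0245), Prf1 (adjusted p = 0.0274) and Nkg7 (adjusted p = 0.0334) were lower, beside 14.7% of all genes. This block also joins diestrus and estrus libraries of the same number, whose residuals correlated at only -0.135 to 0.018. That fit thus assumes a sharing between stages that the residuals did not show, and its part in these calls was not tested. Without both libraries numbered 3 and with no block, Ncr1 (-0.51, adjusted p = 0.00277) and Nkg7 (-0.41, adjusted p = 0.0372) were lower, beside 14.3% of all genes. Ptprc, the common leukocyte antigen CD45, was lower in HIF2A cKO in all 4 pairs as well, at 0.718 to 0.828 of WT, and the part of a lower leukocyte signal in these ratios was not tested.

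Il15 went the other way at diestrus. It was 9.53 ± 3.29 FPKM in WT and 13.1 ± 2.01 FPKM in HIF2A cKO (SD, n = 4), with ratios of 1.78, 1.23, 0.997 and 1.91 in pairs 1, 2, 3 and 4 and overlapping ranges. The log2 difference was 0.47 (SE 0.181, adjusted p = 0.0768) with all libraries. Without WT diestrus replicate 2, the highest WT library for Il15, it was 0.62 (adjusted p = 0.0175), and without WT diestrus replicate 3 alone it was 0.57 (adjusted p = 0.05, just under the threshold). Without both libraries numbered 3 it was 0.62 (adjusted p = 0.0336), where 17.9% of all genes were higher. With WT replicate 1 left out it was 0.32 (adjusted p = 0.2), so whether Il15 passed the threshold changed with single WT libraries. With all libraries kept and weighted by their quality in limma, it was 0.84 (adjusted p = 0.000323).

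**Figure D4:**
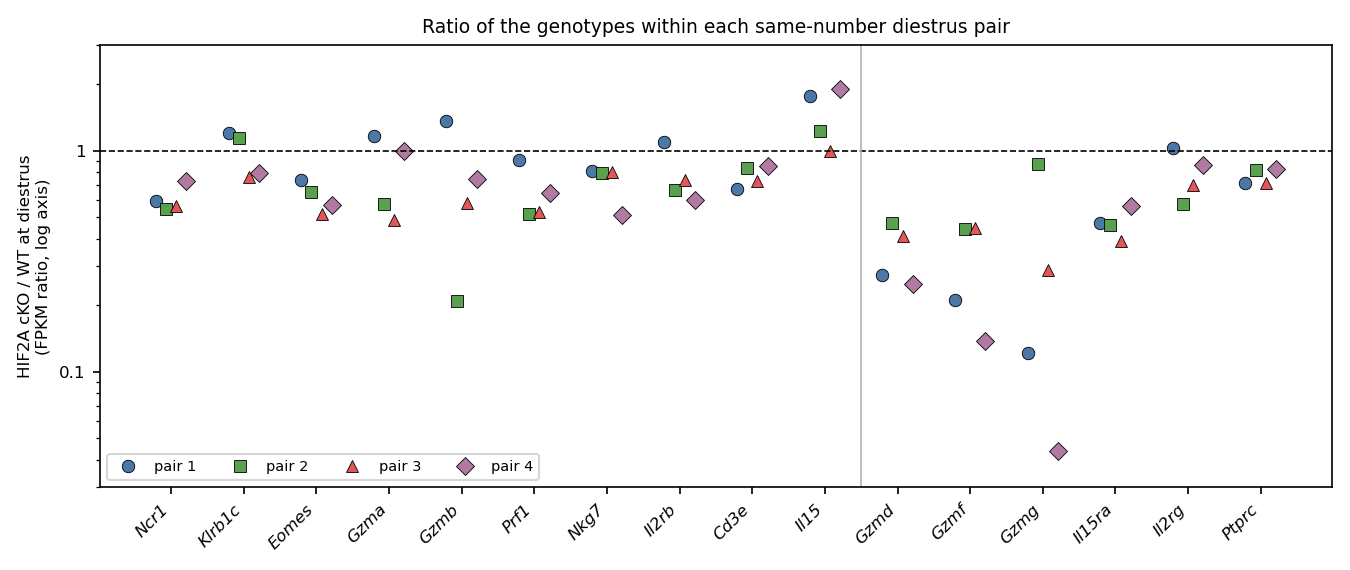
Ratio of FPKM in HIF2A cKO to WT at diestrus (log axis, dashed line at equality) within each pair of libraries that share a replicate number, for the 10 genes (left of the line) and 6 genes of related function (right). All 4 points of Ncr1, Eomes, Prf1, Nkg7, Cd3e, Gzmd, Gzmf, Gzmg, Il15ra and Ptprc lie below 1, and 3 of the 4 points of Il15 lie above it.

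At estrus none of the 9 genes passed the threshold between genotypes (limma, smallest adjusted p = 0.735) and 0 had an unadjusted p under 0.05. The spread in that fit comes from all 14 libraries, those numbered 3 included. Of all genes, 0.105% were called in either direction. Klrb1c had no overlap between genotypes (0.573 to 0.751 FPKM in HIF2A cKO and 1.09 to 1.30 FPKM in WT), a log2 difference of -0.40 (SE 0.203, adjusted p = 0.735). A fit of the estrus libraries alone gave it an adjusted p of 0.0485. Prf1 was also lower in every HIF2A cKO library at estrus (1.44 to 1.77 FPKM against 2.26 to 2.91 FPKM), at -0.43 (adjusted p = 0.968 with all libraries and 0.0626 in the estrus libraries alone). Of genes in the other lists, Klrg1 (0.877 to 1.14 FPKM in HIF2A cKO and 2.25 to 3.32 FPKM in WT) also had no overlap. Gzmd had none either (3.11 to 4.88 FPKM against 8.85 to 9.42 FPKM), while Tyrobp and Itga2 overlapped. These genes were picked after their values were seen and are not all that lacked overlap. Full separation of 3 libraries from 3 reaches an exact two-sided permutation p of 0.1 at best. The share of all genes without overlap was not counted. Cd3e did not differ beyond its spread (log2 difference 0.09, exact two-sided permutation p = 0.3, smallest possible 0.1).

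The difference between the stage effects of the genotypes was tested as an interaction. None of the 9 genes passed (limma, smallest adjusted p = 0.449, for Il15) and 0 had an unadjusted p under 0.05, where 0.035% of all genes were called. Without both libraries numbered 3 the smallest adjusted p among them was 0.0583, for Ncr1 (0.45), where 8.36% of all genes were called.

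The receptor side of the IL-15 system behaved differently from its ligand. Il15ra, which presents the cytokine, stood at 5.31, 5.56, 12.2 and 5.33 FPKM in WT at diestrus and at 2.50, 2.56, 4.76 and 3.00 FPKM in HIF2A cKO, and every HIF2A cKO library was below every WT library. It was lower in HIF2A cKO at diestrus by a log2 difference of -0.90 (adjusted p = 0.0148), with ratios of 0.389 to 0.562 in the 4 pairs. The adjusted p became 0.0529 without HIF2A cKO diestrus replicate 2 and 0.0791 in a fit of the diestrus libraries alone, and stood at 0.0188 with the replicate block. At estrus Il15ra was 4.11 ± 0.299 FPKM in WT and 3.88 ± 0.465 FPKM in HIF2A cKO (SD, n = 3), with no call. The ratio of Il15ra to Il15 was 0.429 to 1.05 in WT at diestrus, 0.161 to 0.409 in HIF2A cKO at diestrus and 1.03 to 1.57 in the 6 estrus libraries. Il2rg, the common gamma chain, stood at 6.82, 9.59, 16.2 and 7.14 FPKM in WT at diestrus and at 7.02, 5.53, 11.4 and 6.15 FPKM in HIF2A cKO, and passed in none of the comparisons (log2 difference -0.33 between genotypes at diestrus, adjusted p = 0.324).

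Socs1, a feedback inhibitor of JAK and STAT signalling downstream of many cytokines, stood at 4.81, 6.98, 9.40 and 5.81 FPKM in WT at diestrus and at 16.8, 20.8, 16.5 and 13.6 FPKM in HIF2A cKO. It was higher in HIF2A cKO at diestrus (log2 1.23, adjusted p = 0.00255) and lower at estrus than at diestrus in HIF2A cKO (-2.04, adjusted p = 2.15e-06). The fall was not particular to HIF2A cKO. In WT at estrus Socs1 stood at 4.2, 2.5 and 2.8 FPKM, below every WT diestrus library. Hand2, a transcription factor of the progesterone-dependent stroma, stood at 28.3, 24.8, 41.6 and 37.3 FPKM in WT at diestrus, at 14.9, 18.9, 43.0 and 22.9 FPKM in HIF2A cKO at diestrus and at 12.8 to 15.7 FPKM in the 6 estrus libraries. In WT it was lower at estrus (-1.08, adjusted p = 0.00446), in the same direction as Il15. Bcl2, a survival factor of lymphocytes and other cells, was higher at estrus in both genotypes (1.47, adjusted p = 2.08e-06, and 1.54, adjusted p = 8.72e-07). Il18r1, a chain of the receptor for the NK-activating cytokine IL-18, was also higher at estrus in both (0.95, adjusted p = 0.00786, and 1.15, adjusted p = 0.00206). Of the 18 tested genes of this pathway, 3 were higher and 4 lower at estrus in WT, 3 higher and 2 lower in HIF2A cKO, and 3 higher (Socs1, Stat5a and Stat5b) and 3 lower (Il15ra, Bcl2 and Il7) in HIF2A cKO at diestrus. Their medians were -0.01, 0.03 and -0.05, beside -0.09, -0.08 and 0.02 over all genes tested. Of all genes 23% were higher and 34.1% lower at estrus in WT, 25.5% and 36.5% in HIF2A cKO, and 13.8% and 10.0% between genotypes at diestrus, so the stage counts of this pathway were at or below the background. Stat5a (0.62, adjusted p = 0.0438) lost its call when any of 12 single libraries was left out.

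**Figure D5:**
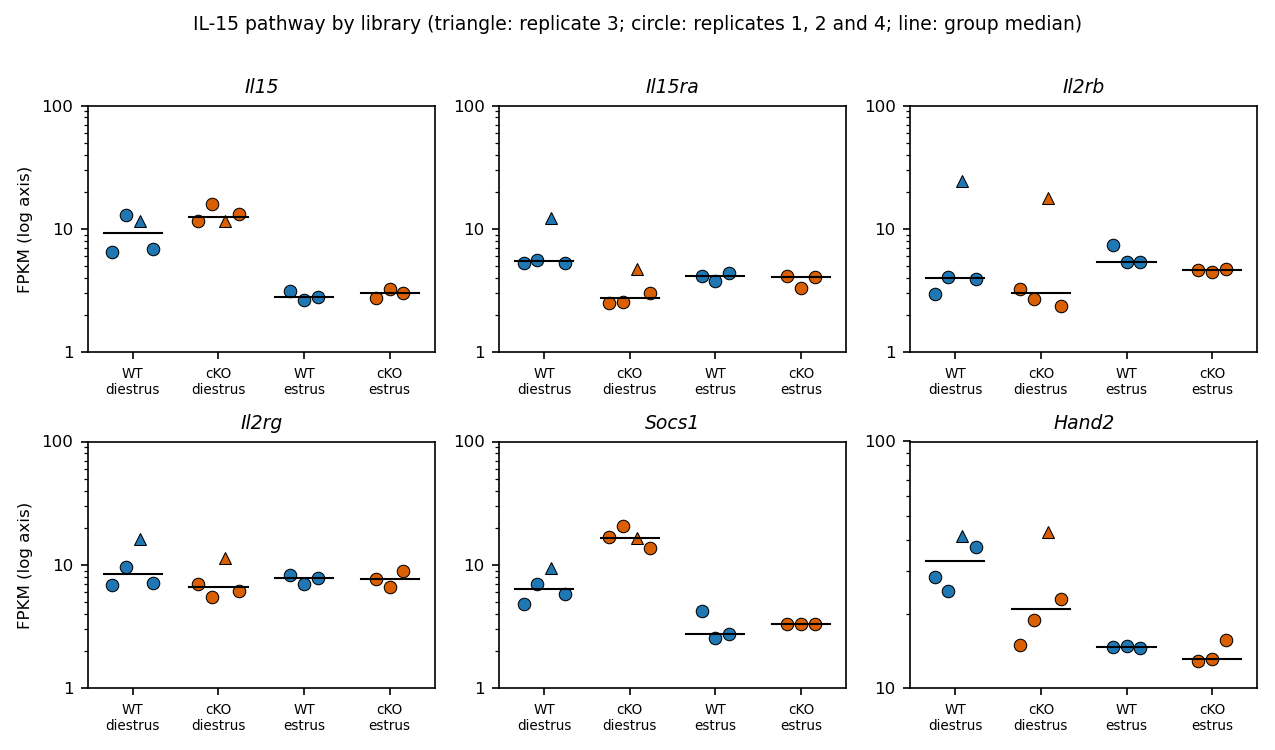
FPKM (log axis) of the IL-15 ligand, its receptor chains, the inhibitor Socs1 and the transcription factor Hand2 in each library, with triangles for replicate 3, circles for the other replicates and a line at the group median. Il15 and Il15ra part at diestrus, where HIF2A cKO holds the highest Il15 (15.9 FPKM) and the lowest Il15ra (2.50 FPKM).

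Among other NK receptor and identity genes, 15 of the list passed the filter. At estrus 3 were higher and 1 lower in WT and 4 higher and 1 lower in HIF2A cKO, with medians of 0.17 and 0.14 beside -0.09 and -0.08 over all genes. Over all genes 23% were higher and 34.1% lower in WT and 25.5% and 36.5% in HIF2A cKO, so the counts of higher genes were near the background. In HIF2A cKO at diestrus 1 was higher and 3 lower, with a median of -0.41, where 13.8% of all genes were higher and 10.0% lower. The genes that led these counts are shared with other cells. Itga2, an integrin chain found on NK cells and on epithelium, was higher at estrus in WT (1.70, adjusted p = 3.28e-06) and higher in HIF2A cKO at diestrus (0.71, adjusted p = 0.00713). Fcgr3, an Fc receptor of NK cells and macrophages, was higher at estrus (0.76, adjusted p = 0.000208, in WT and 1.33, adjusted p = 1.76e-06, in HIF2A cKO). Tyrobp, the signalling adaptor DAP12 of NK and myeloid cells, was higher at estrus in HIF2A cKO (1.08, adjusted p = 0.000107) and lower in HIF2A cKO at diestrus (-0.45, adjusted p = 0.0486, a call lost when any of 12 single libraries was left out). Id2, an inhibitor of DNA-binding factors needed by NK cells and widely expressed, was lower at estrus in WT (-0.68, adjusted p = 0.00602) and lower in HIF2A cKO at diestrus (-0.55, adjusted p = 0.0303, lost without any of WT replicates 1, 3 and 4 or HIF2A cKO replicates 1 and 2). In a fit of the diestrus libraries alone, the genotype calls of Itga2, Id2 and Tyrobp were not kept (adjusted p = 0.0577, 0.11 and 0.125). Nfil3, a transcription factor of early NK cells, was lower at estrus in HIF2A cKO (-1.16, adjusted p = 0.0247), a call lost without HIF2A cKO estrus replicate 1 or 2 or diestrus replicate 3. The 8 macrophage markers, which share some of these genes' cell types, summed to 238 to 325 FPKM at diestrus and 435 to 479 FPKM at estrus in WT, and to 211 to 272 FPKM and 460 to 603 FPKM in HIF2A cKO. Their part in these changes was not tested.

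Single receptors differed in their ratio between genotypes. Klrd1, the CD94 chain, stood at 2.50, 1.60, 8.29 and 2.15 FPKM in WT at diestrus and at 1.09, 1.10, 5.04 and 1.18 FPKM in HIF2A cKO, 0.434 to 0.686 of WT in the 4 pairs. With the block in the diestrus libraries it was lower in HIF2A cKO (-0.55, adjusted p = 0.0305). At estrus Klrd1 stood at 1.91 to 2.51 FPKM in HIF2A cKO and at 3.43 to 3.76 FPKM in WT. Klrg1 was at 0.438 to 0.671 of WT in the pairs (-0.47, adjusted p = 0.0941 with that block). Cd96, a receptor of NK and T cells, was above WT in 3 of the 4 pairs (1.05, 1.22 and 1.07 in pairs 1, 2 and 4, and 0.536 in pair 3). It did not pass the filter, and pairs 1, 2 and 4 stood at only 0.330 to 0.530 FPKM. With the block, 4 of the 15 NK receptor genes were lower and 1 higher at diestrus, where 5.86% of all genes were lower and 8.39% higher. Without both libraries numbered 3 and with no block 6 were lower and 1 higher, where 14.3% of all genes were lower and 17.9% higher.

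Of the other genes for granules and target killing, 18 passed the filter. At estrus 7 were higher and 3 lower in WT and 9 higher and 1 lower in HIF2A cKO, with medians of 0.30 and 0.58 beside -0.09 and -0.08 over all genes, of which 23% were higher and 34.1% lower in WT and 25.5% and 36.5% in HIF2A cKO. Rab27a, which docks granules in lymphocytes and other secretory cells, was higher at estrus in WT (1.36, adjusted p = 1.31e-07). Tnfsf10, the death ligand TRAIL, was higher in both genotypes (1.25, adjusted p = 5.86e-05, and 1.42, adjusted p = 1.34e-05). Srgn, the proteoglycan core of granules in many blood-derived cells, was lower in both (-1.25, adjusted p = 2.66e-06, and -1.89, adjusted p = 5.66e-08). Srgn stood at 165 to 208 FPKM in WT and 206 to 275 FPKM in HIF2A cKO at diestrus, far above every granzyme, and was 1.05-fold and 0.787-fold the mean of the others in replicate 3. Between genotypes at diestrus, Srgn was higher in HIF2A cKO (0.38, adjusted p = 0.0215, lost without WT replicate 4 or HIF2A cKO replicate 1 or 2). Unc13d, which primes granules for release, was lower (-0.35, adjusted p = 0.0496, lost when any of 12 single libraries was left out). Neither kept its call in a fit of the diestrus libraries alone (adjusted p = 0.0792 and 0.135).

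The granzymes Gzmd, Gzme, Gzmf and Gzmg lie beside Gzmb on chromosome 14, between 56117626 and 56211417, and are near-identical copies among themselves, so reads may have been split between them. Gzmg stood at 5.44, 1.74, 7.46 and 5.52 FPKM in WT at diestrus and at 0.662, 1.51, 2.16 and 0.242 FPKM in HIF2A cKO, with ranges that overlapped by WT replicate 2 alone. At estrus it stood at 11.6, 11.8 and 10.2 FPKM in WT and at 6.38, 2.30 and 5.45 FPKM in HIF2A cKO. It was lower in HIF2A cKO at diestrus (log2 -1.47, adjusted p = 0.0151) and higher at estrus in HIF2A cKO (1.42, adjusted p = 0.00754). The call at diestrus became 0.0651 in a fit of the diestrus libraries alone and was kept without any single library (adjusted p 0.00297 to 0.048). Gzmd, Gzme and Gzmf were also below WT in all 4 diestrus pairs, at 0.250 to 0.473, 0.142 to 0.523 and 0.138 to 0.447. Their lower level was not particular to diestrus. At estrus they stood at 3.11 to 4.88, 0.917 to 1.89 and 2.48 to 6.96 FPKM in HIF2A cKO. The WT estrus ranges were 8.85 to 9.42, 3.24 to 3.56 and 10.1 to 13.0 FPKM. With the block in the diestrus libraries Gzmd, Gzme and Gzmf were lower (-1.15, adjusted p = 0.0180, -0.95, adjusted p = 0.0321, and -1.38, adjusted p = 0.0216). With it 6 of the 18 genes of this list were lower and 0 higher at diestrus, where 5.86% of all genes were lower and 8.39% higher. Without it 2 were lower and 1 higher, where 10.0% of all genes were lower and 13.8% higher.

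Of the 21 genes of the T cell list, 8 passed the filter. None was called in WT between stages, 1 (Cd4, 0.56, adjusted p = 0.0159) was higher at estrus in HIF2A cKO, a call lost without HIF2A cKO estrus replicate 4 (0.46, adjusted p = 0.0745), and none was called between genotypes at diestrus, with a median of -0.14. Cd3g, a further chain of the T cell receptor complex, stood at 2.19, 2.55, 6.29 and 2.39 FPKM in WT at diestrus and at 1.64, 1.35, 2.80 and 1.29 FPKM in HIF2A cKO, 0.445 to 0.748 of WT in the pairs. It was lower with the block in the diestrus libraries (-0.59, adjusted p = 0.0375). In replicate 3, Cd3g was thus 2.65-fold (WT) and 1.97-fold (HIF2A cKO) above the other diestrus libraries, more than Cd3e and less than any of the 5 granule and receptor genes Gzma, Gzmb, Prf1, Nkg7 and Il2rb.

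Of 11 ligands of NK receptors, 7 were higher and 1 lower at estrus in each genotype, where 23% of all genes were higher and 34.1% lower in WT and 25.5% and 36.5% in HIF2A cKO. H2-T23, which presents peptides to the CD94 receptors, rose by a log2 difference of 1.19 (adjusted p = 0.000369) in WT and 1.52 (adjusted p = 4.04e-05) in HIF2A cKO, and Clec2d, a ligand of Klrb1 receptors, by 1.00 (adjusted p = 0.000553) and 1.27 (adjusted p = 6.54e-05). Ulbp1, a ligand of the activating receptor NKG2D, was lower at estrus (-1.22, adjusted p = 1.07e-05, and -1.51, adjusted p = 1.19e-06). B2m, the light chain of class I molecules, was lower in HIF2A cKO at diestrus (-0.77, adjusted p = 0.00476). Of 16 genes for lymphocyte chemokines and homing, 5 were higher and 1 lower at estrus in WT and 10 higher and 1 lower in HIF2A cKO, against the same shares of all genes, so the count in WT was near the background. Cxcl16 (1.56, adjusted p = 3.43e-05, and 1.60, adjusted p = 1.72e-05) and Cx3cl1 (1.54, adjusted p = 0.000141, and 1.41, adjusted p = 0.00019), ligands of receptors on NK and T cells, led both counts. Cxcr4, the receptor for Cxcl12, was higher at estrus in WT (1.38, adjusted p = 0.00311), and Cxcl10 in HIF2A cKO (1.07, adjusted p = 0.000877). Cxcl10, which draws activated NK and T cells, was lower in HIF2A cKO at diestrus (-0.61, adjusted p = 0.0433), a call lost without any of 10 single libraries, and S1pr1, a receptor for exit from tissue, was higher (0.51, adjusted p = 0.0115). In a fit of the diestrus libraries alone neither kept its call (adjusted p = 0.11 and 0.0725). None of the genes of these lists was called between genotypes at estrus or in the interaction.

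The genes whose log2 pattern over the 14 libraries was most like each gene were named by Pearson r, as a description that shares libraries and, for most genes, the pull of the libraries numbered 3. For Ncr1 these were Foxf1 (r = 0.972), AU015791 (0.970) and Cdh5 (0.968), and over the 12 libraries without those numbered 3 the same r were 0.565, 0.551 and 0.581. For Gzma they were Dusp2 (0.978, and 0.652 over 12), Tnfrsf9 (0.972, 0.897) and AU015791 (0.971, 0.385). For Gzmb they were Slc2a3 (0.981, 0.899), Pla2g10 (0.981, 0.920) and Ptger2 (0.978, 0.869). The values over 12 libraries show that likeness to Ncr1 and to AU015791 rested on the high libraries. For Prf1 they were Tnfrsf9 (0.990, 0.941), Skap1 (0.972, 0.886) and Dusp2 (0.970, 0.681). For Il2rb they were Skap1 (0.987, 0.934), Samd3 (0.969, 0.859) and Gimap5 (0.968, 0.845), and for Nkg7 Skap1 (0.960, 0.842) and Csf2rb2 (0.957, 0.849). Skap1, an adaptor of lymphocyte signalling, was thus among the 3 nearest genes of Prf1, Il2rb and Nkg7. For Eomes they were Gimap5 (0.976, 0.773), Spn (0.972, 0.786) and Cst7 (0.972, 0.802), and for Klrb1c Sh2d1a (0.939, 0.919), Tmsb15a (0.918, 0.905) and Klrg1 (0.914, 0.936). Il15 was set apart, with Grik2 (0.992, 0.993), Maged2 (0.992, 0.991) and Rian (0.991, 0.990) nearest and little change without the high libraries.

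Between the genes themselves, Prf1 and Gzma had r = 0.982 over 14 libraries and 0.862 over 12, Prf1 and Il2rb 0.977 and 0.883, and Nkg7 and Il2rb 0.976 and 0.923. Gzmb lost most, with r to Prf1 of 0.918 over 14 libraries and 0.409 over 12, in which WT diestrus replicate 2 was high in Gzmb. Il15 had r of 0.033 to Il2rb over 14 libraries and -0.801 over 12, where the estrus libraries had more Il2rb and less Il15. The ratio of Il2rb to Il15 was 0.171 to 0.575 in the 6 diestrus libraries not numbered 3, 1.37 to 2.37 in the 6 estrus libraries, and 2.08 and 1.54 in WT and HIF2A cKO diestrus replicate 3. By this ratio the libraries numbered 3 fell in the range of estrus, but neither gene was at its estrus level there. Il2rb stood at 24.3 and 17.9 FPKM in them, against 4.44 to 7.47 FPKM at estrus. By Il15 alone they lay with the libraries of diestrus.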

How the data were processed

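RNA from uterine tissue was extracted with a column kit with DNase treatment and made into Illumina TruSeq libraries, per the labels' protocols. Per the submitters' processing notes, the tools were TopHat2 2.0.4 and Cufflinks 2.0.2 on mouse build mm10. The authors deposited 1 table of FPKM values for 31274 gene symbols, of which 8438 were at 0 in every library. Read totals were not recovered: only 38 of 91 pairs of libraries gave a clear ratio of low values, so depth is unknown and no counting error is given. The columns summed to 437879 to 497688 FPKM.

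The log2(FPKM + 1) values were fitted in limma (version 3.58.1, R version 4.3.3), with a mean per group in 1 fit of 14 libraries, a mean-variance trend and Benjamini-Hochberg adjustment at 0.05, for 5 comparisons: stage in each genotype, genotype at each stage, and the interaction. The pseudocount of 1 makes a log2 difference of a low gene smaller than its FPKM ratio. Genes that reached 1 FPKM in 3 or more libraries were kept, 14285 in all, and 7 that were listed at 0 throughout a group but at a mean of 50 FPKM or more in another were left out, giving 14278. The model was tested on simulated data. Cd3e and Epas1 were compared with exact permutation tests. Tables were handled in Python 3.11.15 with pandas 2.3.3, numpy 2.4.6, scipy 1.17.1 and matplotlib 3.10.9.

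The genes and gene lists were chosen with earlier results of these data known. Genes named from a list were the 3 with the largest difference past the threshold in each stage comparison and in the genotype comparison at diestrus, provided that the higher group averaged 1 FPKM or more, and 3 like genes were named per gene, of which 1 is not reported here. Granzymes, T cell and receptor genes named beside them for the libraries numbered 3, for the pairs or for overlap at estrus were chosen after their values were seen. Of 8 pan-leukocyte, 8 macrophage and 12 uterine tissue markers tested, 7, 2 and 3 were highest in both libraries numbered 3, and none was of the 2 eosinophil, 4 adipocyte or 2 ovary markers.

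Residuals of diestrus libraries with the same number in the 2 genotypes correlated at 0.321, 0.115, 0.622 and 0.217, in each case their highest correlation, so these numbers were treated as pairs. At estrus the correlations were 0.08, 0.096 and -0.047, and between stages they ran from -0.135 to 0.018, so those libraries were not. Some of the alternatives still put the block in their fits. The alternatives tried were the pseudocount, the filter, scaling, library weights, no trend, fewer libraries in the fit, the replicate block and each library left out.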

Additional observations from a re-analysis of the deposited data

Results flagged for a closer look

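Of 20 groups of 4 diestrus values, 2 for each gene, 13 held a library that lay far above the other 3 by Dixon's criterion (critical value 0.829), where chance gives about 5 percent of groups. In all 13 the library was diestrus replicate 3. In WT these were Ncr1 (21.2 FPKM), Gzma (56.0 FPKM), Prf1 (18.6 FPKM), Nkg7 (21.1 FPKM), Il2rb (24.3 FPKM) and Eomes (5.22 FPKM). In HIF2A cKO they were Ncr1 (12.0 FPKM), Gzma (27.3 FPKM), Gzmb (45.1 FPKM), Prf1 (9.88 FPKM), Nkg7 (16.9 FPKM), Il2rb (17.9 FPKM) and Eomes (2.70 FPKM). Gzmb in WT, where replicate 2 was also high, and Klrb1c, Cd3e and Il15 in either genotype did not pass the criterion. The genes share these libraries, so the 13 are not separate observations. The genes were also chosen with earlier results of these data known. The count is thus a description and is not weighed against the 5 percent.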

How the results depend on the processing

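The fall of Il15 at estrus passed the threshold in both genotypes under every alternative fitted, and WT diestrus replicate 3 and HIF2A cKO diestrus replicate 3 moved most other values. Values below are log2 differences or counts of called genes, among the 10 described or among all genes, and the cause of a change was not tested. With the pseudocount at 0.1, 7 genes differed between genotypes at estrus and 8 in the interaction, against 15 and 5, and the stage difference was 0.03 for Il2rb in WT and 0.06, 0.03 and 0.03 for Il2rb, Klrb1c and Eomes in HIF2A cKO. Without a filter 26 and 11 genes were called there, and 2 of the 10 between stages in HIF2A cKO, Cd3e being added (0.22). At 5 FPKM none was called at estrus, and with genes listed at 0 kept 12 were called in the interaction. Median-of-ratios scaling gave stage differences of 0.06 for Il2rb in WT and 0.08 and 0.04 for Il2rb and Klrb1c in HIF2A cKO. Quantile normalization gave 0.03 for Il2rb in WT and 0.01 and 0.01 for the same pair, 0.04 for Klrb1c between genotypes at diestrus, and 23 and 10 genes at estrus and in the interaction. A fit of the libraries compared alone called 401 genes between genotypes at diestrus, against 3410, and 332 at estrus, with 1 of the 10 (Klrb1c). Library weights called 7885, 1331 and 5225 genes for genotype at diestrus, at estrus and in the interaction, and 2, 2, 1, 1 and 2 of the 10 in WT between stages, in HIF2A cKO between stages, and in those 3 comparisons. The stage differences were then 0.31, 0.48 and 0.45 for Gzma, Prf1 and Il2rb in WT and 0.30, 0.27, 0.44, 0.26, 0.08 and 0.22 for Gzma, Prf1, Il2rb, Ncr1, Klrb1c and Eomes in HIF2A cKO, and Klrb1c was at 0.04 between genotypes at diestrus.

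The replicate block in the fit of all libraries called 5 and 7 of the 10 between stages in WT and HIF2A cKO, 4 between genotypes at diestrus, and 462 genes in the interaction. That block also joins libraries of different stages, whose residuals did not pair. The stage differences were then 0.33, 0.46, 0.58 and 0.07 for Gzma, Prf1, Il2rb and Eomes in WT and 0.55, 0.11, 0.48, 0.59, 0.32, 0.35 and 0.15 for Gzma, Gzmb, Prf1, Il2rb, Eomes, Ncr1 and Klrb1c in HIF2A cKO. The replicate block in the libraries of 1 stage called 1 of the 10 (Ncr1) and 2034 genes between genotypes at diestrus, and 138 at estrus. In the diestrus libraries without those numbered 3, a block chosen after seeing the data called 1411 genes and 0 of the 10, Ncr1 having an adjusted p of 0.0534 in limma, and gave 0.01 for Klrb1c.

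Without both libraries numbered 3 and with no block, 6, 7 and 3 of the 10 were called in WT between stages, in HIF2A cKO between stages and between genotypes at diestrus, and 64 and 1194 genes at estrus and in the interaction. Eomes in WT (0.13), Klrb1c in HIF2A cKO (0.13) between stages and Klrb1c between genotypes at diestrus (0.01) changed sign, and Gzma (0.44 and 0.45), Prf1 (0.53 and 0.41), Il2rb (0.59 and 0.58), Gzmb (0.09), Ncr1 (0.32) and Eomes (0.26) did so as described. Leaving out 1 library at a time gave 1 to 2 of the 10 called in WT between stages and 0 to 1 between genotypes at diestrus, and 1489 to 5028, 1 to 30 and 1 to 1181 genes for genotype at diestrus, at estrus and in the interaction. Between stages in WT the differences then ran from -1.12 to 0.44 (Gzma), -0.55 to 0.53 (Prf1), -0.17 to 0.60 (Nkg7), -0.30 to 0.59 (Il2rb), -0.50 to 0.13 (Eomes) and -0.04 to 0.04 (Cd3e). In HIF2A cKO they ran from -0.37 to 0.32 (Ncr1), -0.07 to 0.13 (Klrb1c), -0.75 to 0.45 (Gzma), -1.17 to 0.09 (Gzmb), -0.44 to 0.41 (Prf1), -0.25 to 0.58 (Il2rb) and -0.18 to 0.26 (Eomes). Between genotypes at diestrus they ran from -0.18 to 0.14 (Klrb1c), -1.24 to 0.75 (Gzma), -1.59 to 0.25 (Gzmb), -1.07 to 0.30 (Prf1), -0.94 to 0.14 (Nkg7), -0.91 to 0.28 (Il2rb) and -0.69 to 0.07 (Eomes), and at estrus from -0.22 to 0.03 (Gzma). FPKM without read totals sets no limit of detection, and the low values of Cd3e, Klrb1c and Eomes carry an unknown counting error.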
